A study of Homo sapiens with 6 samples.

Results

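The effectors downstream of ATF4 and CHOP are the genes that carry out the cell's answer once these factors have been switched on. They were chosen by name, with earlier results of these data known. They are 10 genes out of 60651 gene identifiers: CHAC1, TRIB3, DDIT4, NUPR1, SESN2, GDF15, STC2, PCK2, VLDLR and FGF21. RNA was measured in SK-N-AS, an established human neuroblastoma line without MYCN amplification, which had been made to carry a MYCN gene behind a tetracycline-controlled promoter together with the tet repressor. Single clones were kept under G418 and blasticidin, and both groups carry these constructs and this selection. The 3 control cultures are named for ethanol in their titles, and the 3 MYCN-induced cultures for tetracycline, each at 120 h (5 days). Parental cells under tetracycline were not analysed here, so an effect of tetracycline itself and an effect of MYCN cannot be told apart. Ribosomal RNA was depleted before sequencing, and the values are estimated counts of read pairs per gene.

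The integrated stress response starts when kinases that sense lack of amino acids, misfolded proteins, double-stranded RNA or mitochondrial trouble phosphorylate the translation factor eIF2α. General protein synthesis then slows while ATF4 messenger RNA is translated more, and ATF4 in turn raises CHOP, the product of DDIT3. Both are basic leucine zipper factors that bind, often as dimers with C/EBP proteins, to composite C/EBP-ATF elements. Their effectors fall into inhibitors of growth signalling (TRIB3, DDIT4, SESN2), enzymes of glutathione and carbon metabolism (CHAC1, PCK2), a nuclear stress protein (NUPR1), secreted hormones (FGF21, GDF15, STC2) and a lipoprotein receptor (VLDLR). MYCN itself is a transcription factor that binds E-box elements and drives growth and protein synthesis in neuroblastoma.

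Copies of a C/EBP-ATF core near the starts of 7 of these genes are printed here, because ATF4 and CHOP dimers are known to bind such elements, with the 8 bases of the core in capitals. The letters searched were TGATGCAA and, on the other strand, TTGCATCA. In windows of 300 bases around RefSeq starts (250 before and 50 after), a core stood in 2 of 9 effectors with a window (CHAC1 and FGF21) and in 1.08% of 27305 genes. NUPR1 has no window. Within 2000 bases either side of a start it stood in 7 of 9 effectors and in 11.16% of the 27305 genes. The letters are not in these wider windows of GDF15 and PCK2. The E-box letters CACGTG, which do not overlap the core, stood in the 300-base window of 0 of 9 effectors and of 8.77% of genes. They were not searched in the wider windows, so the counts of core and E-box compare only at 300 bases. A match is a description of letters and not a bound site. The stretches of 30 bases below are read 5′ to 3′ on the gene's strand of GRCh38, with starts from RefSeq.
CHAC1 (209 bases before the start, chr15:40953251-40953280, plus strand): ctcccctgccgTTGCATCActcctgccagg
FGF21 (54 bases before the start, chr19:48755459-48755488, plus strand): aaacaccaggaTTGCATCAgggaggaggag
TRIB3 (403 to 451 bases before its starts, chr20:380881-380910, plus strand): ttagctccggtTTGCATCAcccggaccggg
DDIT4 (946 bases before the start, chr10:72272967-72272996, plus strand): gtcctcggtccTGATGCAAccgtctggatc
STC2 (752 bases before the start, chr5:173329148-173329177, minus strand): cctcctggaaaTGATGCAAgtcctgactgt
VLDLR (438 bases before the start, chr9:2621338-2621367, plus strand): agcaacgatagTTGCATCAgcgctaactgc
SESN2 (552 bases after the start, chr1:28260059-28260088, plus strand): cgggacccgggTTGCATCAactggcagccg

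The same 30 bases stand 3 times in TRIB3, the other copies at chr20:380914-380943 and chr20:380947-380976, all in an intron of the deposited annotation, which starts TRIB3 further upstream. The CHAC1 core lies in an annotated exon for the same reason. CHAC1 holds another core 1190 bases after its start, in an intron. FGF21 is shown with the 120 bases before its start (chr19:48755404-48755523, plus strand, RefSeq on GRCh38.p14), because its core lies closest to a start.
FGF21: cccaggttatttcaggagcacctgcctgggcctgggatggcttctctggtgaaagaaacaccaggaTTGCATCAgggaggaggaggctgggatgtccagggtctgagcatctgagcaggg

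The libraries held between 64500589 and 102249336 counted pairs. Gene positions are those of the deposited annotation on GRCh38. Values below are CPM, meaning counts scaled to library size after TMM normalization, and a test is edgeR's quasi-likelihood test adjusted over all 29086 genes that reached 10 counts in 3 or more libraries. MYCN-induced replicate 3 stood apart. In a principal component analysis it lay at 69.1 on the leading axis (44.8% of the variance), against 14.4 and 13.1 for MYCN-induced replicates 1 and 2 and -40.3 to -25.9 for the controls. Its depth of 91041116 counted pairs was within the range of the others. All 10 neuroblastoma markers were detected, among them HAND2 at 349 to 559 CPM. Their summed level was 861 to 1176 CPM in controls and 845 to 1043 CPM in induced libraries, with 1008 CPM in replicate 3. The 8 mesenchymal markers summed to 1923 to 2463 CPM in controls and 1765 to 2310 CPM in induced libraries, with CD44 at 0 counts in every library. COL1A1 made up most of that sum and was lowest in replicate 3 (1081 CPM), and without it the other mesenchymal markers summed to 527 to 556 CPM in controls and to 671, 651 and 684 CPM in induced replicates 1, 2 and 3, replicate 3 being the highest. Single markers lay apart between the groups: CHGA was at 59.0 to 130 CPM in controls and 34.9 to 46.7 CPM in induced libraries, CHGB at 1.52 to 2.90 and 0.259 to 0.698 CPM, FN1 at 50.9 to 60.5 and 28.4 to 39.7 CPM, and TGFBI at 56.3 to 63.3 and 96.4 to 112 CPM. ISL1 was also lower, at 22.7 to 23.9 and 13.1 to 17.8 CPM. VIM was higher, at 360 to 372 and 420 to 475 CPM. FOSL1 was higher too, at 9.49 to 11 CPM and at 16.5, 15.3 and 36.9 CPM in induced replicates 1, 2 and 3. The part of these markers in the results below was not tested. In bulk RNA, fewer expressing cells and less RNA per cell cannot be told apart.

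MYCN was at 30.3, 35.5 and 32.4 CPM in control replicates 1, 2 and 3 and at 211, 221 and 199 CPM in the MYCN-induced replicates. The induced libraries lay within a narrow band, and replicate 3 was the lowest of them. MYCN rose by a log2 fold change of 2.68 (SE, the standard error, 0.08, edgeR adjusted p = 4.155e-05). ATF4, the first factor of the pathway, was at 189, 189 and 204 CPM in controls and at 319, 300 and 547 CPM in induced cells, without overlap. ATF4 rose by 1.0 on the log2 scale (SE 0.21, edgeR adjusted p = 0.0475), a call that ended when any control or MYCN-induced replicate 1 was left out (adjusted p up to 0.201). DDIT3, which encodes CHOP, was at 9.35, 8.56 and 8.43 CPM against 12.4, 11.1 and 27.7 CPM, without overlap, and its log2 fold change of 0.96 did not pass the test (SE 0.32, edgeR adjusted p = 0.162). Without replicate 3 the log2 fold change of DDIT3 was 0.43 (adjusted p = 0.0332 from edgeR).

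**Figure D1:**
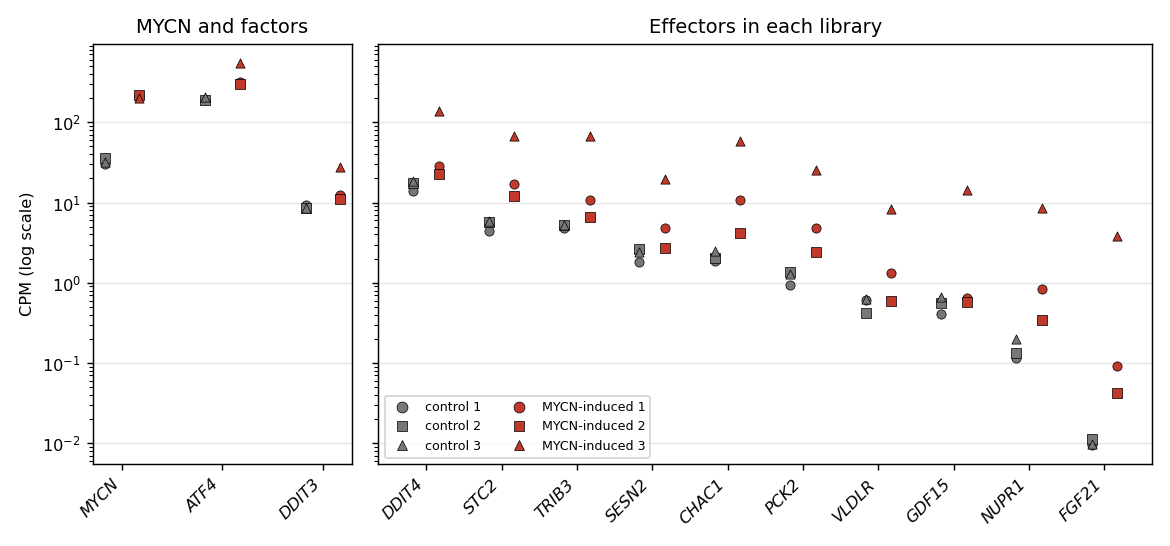
CPM of MYCN, ATF4 and DDIT3 (left) and of the 10 effectors (right) on a log axis, with 1 point per library, grey for control and red for MYCN-induced. MYCN is alike in the 3 induced libraries, whereas each effector has MYCN-induced replicate 3 (red triangle) on top and replicate 1 (circle) above replicate 2 (square).

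None of the effectors passed the test with all 6 libraries, although each of the 9 that could be tested had a higher mean in induced cells and the differences were large. All 9 had at least 10 counts in each of the 6 libraries, so none entered through a single group, and FGF21 fell under the count minimum. Of the 9, 0 were higher at an adjusted p under 0.05, against 1.02% of all genes tested, and 0 were lower, against 2.38%. At an unadjusted p under 0.05, 9 of 9 were higher, against 8.13% of all genes. DESeq2 called 4 of the 9 higher (CHAC1, NUPR1, STC2 and PCK2), against 3.11% of the 29073 genes to which it gave an adjusted p. It gave none to GDF15, which could therefore not be called. The groups did not overlap for 7 of the 9, or 8 of the 10 with FGF21, against 11.5% of all genes. The median log2 fold change was 2.61 for the 9 effectors, from 1.92 in DDIT4 to 4.44 in NUPR1, and -0.0004 for all genes tested. With FGF21 at its ratio of pooled counts the median of 10 was 2.90. Because the members were chosen with earlier results of these data known, these shares and medians are descriptions and not independent support.

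The inhibitors of growth signalling had their highest values in induced replicate 3 by a wide margin. TRIB3 (ENSG00000101255.11, chr20:362835-397559, plus strand), a pseudokinase that binds AKT and ATF4 and damps both, was at 4.78, 5.24 and 5.22 CPM in controls and at 10.8, 6.57 and 67.9 CPM in induced replicates 1, 2 and 3. The groups did not overlap, but replicate 2 lay only 1.29-fold above the control mean while replicate 3 lay 13.4-fold above it. The means were 5.08 ± 0.263 and 28.4 ± 34.3 CPM (SD, n = 3 each), with a log2 fold change of 2.49 (SE 0.79, edgeR adjusted p = 0.145).

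DDIT4 (also REDD1, ENSG00000168209.6, chr10:72273919-72276036, plus strand), which restrains mTORC1 through the TSC complex, was at 13.8, 17.4 and 18.7 CPM in controls and at 28.9, 22.4 and 137 CPM in induced cells. Each induced library was above each control, and replicate 3 was 8.22-fold above the control mean of 16.6 ± 2.54 CPM (SD, n = 3). The log2 fold change of DDIT4, 1.92, was the smallest of the 9 (SE 0.63, edgeR adjusted p = 0.158). SESN2 (ENSG00000130766.5, chr1:28259518-28282491, plus strand), a leucine sensor that holds back mTORC1 through GATOR2, was at 1.82, 2.65 and 2.44 CPM against 4.88, 2.75 and 19.9 CPM. Its groups did not overlap, though induced replicate 2 and control replicate 2 were nearly level. The log2 fold change of SESN2 was 2.00 (SE 0.66, edgeR adjusted p = 0.158).

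Both metabolic enzymes stood clear of the controls in each induced library. CHAC1 (ENSG00000128965.13, chr15:40952962-40956512, plus strand), an enzyme that breaks down glutathione, was at 1.88, 2.06 and 2.47 CPM in controls and at 10.9, 4.16 and 58.4 CPM in induced cells. Those are 5.11, 1.95 and 27.3 times the control mean of 2.14 ± 0.299 CPM (SD, n = 3). The log2 fold change was 3.52 (SE 0.88, edgeR adjusted p = 0.079), and without replicate 3 it was 1.81 and passed the test (adjusted p = 0.0327 from edgeR). PCK2 (ENSG00000100889.12, chr14:24094053-24110598, plus strand), the mitochondrial phosphoenolpyruvate carboxykinase, was at 0.926, 1.38 and 1.29 CPM in controls and at 4.75, 2.43 and 25.6 CPM in induced cells. The lowest induced library of PCK2 was 2.02 times the control mean of 1.20 ± 0.239 CPM (SD, n = 3). Its log2 fold change was 3.19 with all libraries (SE 0.82, edgeR adjusted p = 0.0857) and 1.58 without replicate 3 (adjusted p = 0.0278 from edgeR).

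NUPR1 (ENSG00000176046.9, chr16:28532708-28539008, minus strand), a small chromatin-associated protein of the stress response, had the largest log2 fold change of the 9. It was at 0.115, 0.135 and 0.197 CPM in controls and at 0.848, 0.343 and 8.56 CPM in induced cells. The groups did not overlap, and replicate 3 was 57.4 times the control mean. The control values rest on 12 to 20 rounded counts, where 12 counts carry an exact Poisson interval of 6.20 to 21, and the induced values on 55, 32 and 726. The log2 fold change of 4.44 did not pass (SE 1.23, edgeR adjusted p = 0.102), and that of 1.94 without replicate 3 did (adjusted p = 0.0488 from edgeR). On the same strand NUPR1 shares 909 exon bases, 16.5% of its own, with ENSG00000288656, which had 117.17, 107.67 and 138.17 counts in controls and 96.83, 70.0 and 626.5 in induced cells. Pairs in the shared bases were split between both genes, so the low values of NUPR1 are uncertain to that extent.

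The secreted effectors showed unlike patterns. STC2 (ENSG00000113739.11, chr5:173314723-173328447, minus strand), a glycoprotein hormone that inhibits the protease PAPP-A, had the lowest coefficient of variation among induced libraries (94.3%). It was at 4.47, 5.79 and 5.91 CPM in controls and 17.0, 12.2 and 66.6 CPM in induced cells. Each induced library of STC2 was at least 2.27 times the control mean of 5.39 ± 0.797 CPM (SD, n = 3). With all libraries its log2 fold change was 2.57 (SE 0.60, edgeR adjusted p = 0.0653), and without replicate 3 it was 1.44 with the smallest adjusted p of the 9 (0.00735 from edgeR).

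GDF15 (ENSG00000130513.6, chr19:18374731-18389176, plus strand), a cytokine that signals to the brain stem through GFRAL, was at 0.411, 0.553 and 0.661 CPM in controls and at 0.647, 0.579 and 14.2 CPM in induced cells. The groups overlapped: induced replicates 1 and 2 were both below control replicate 3, and only replicate 3 was high, 26.2 times the control mean. The log2 fold change of 3.25 (SE 1.20, edgeR adjusted p = 0.199) went with 0.18 once replicate 3 was left out (SE 0.25, edgeR adjusted p = 0.703).

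FGF21 (ENSG00000105550.10, chr19:48755524-48758333, plus strand), a hormone better known from liver and muscle under starvation and mitochondrial stress, had 1 count in each control library. It had 6, 4.5 and 328.5 counts in induced replicates 1, 2 and 3. Rounded to 6, 4 and 328 counts, these are 0.0925, 0.0429 and 3.87 CPM. From the rounded counts, against the pooled controls and scaled to depth, the ratio was 9.08 in replicate 1 (95% exact interval 1.94 to 56.1), 4.22 in replicate 2 (0.714 to 28.8) and 380 in replicate 3 (129 to 1853). These intervals cover counting error only, and that of replicate 2 includes no difference. The interval of replicate 1 lies above 1, on 6 counts. In replicate 3 the CPM was 41.8 times that of replicate 1 and 90.1 times that of replicate 2, on 6 and 4 rounded counts in those libraries. With no count filter FGF21 entered the edgeR test and did not pass (adjusted p = 0.0565).

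VLDLR (ENSG00000147852.17, chr9:2621182-2660056, plus strand), a receptor for lipoproteins and reelin, was at 0.611, 0.417 and 0.631 CPM in controls and at 1.34, 0.601 and 8.21 CPM in induced cells. Induced replicate 2 lay among the controls, so the groups overlapped. The log2 fold change was 2.61 with all libraries (SE 0.88, edgeR adjusted p = 0.165) and 0.77 without replicate 3 (adjusted p = 0.236 from edgeR). VLDLR shares 826 exon bases with VLDLR-AS1 and 1100 with ENSG00000286670, both on the opposite strand. VLDLR-AS1 had 2.5, 2.0 and 4.5 counts in controls and 13.5, 11 and 228 in induced cells. ENSG00000286670 had 9.0, 5.0 and 7.0 counts against 10.33, 8.5 and 91.0. The counting header sets no strand option, so reads of VLDLR and of these antisense genes may be mixed.

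Across the effectors the induced libraries had the same order. Replicate 3 was above replicate 1 and replicate 1 above replicate 2 in 9 of the 9 tested and in 10 of all 10, against 22.7% of all genes tested, and replicate 3 was the highest of the 6 libraries in the same genes, against 25.0%. Over the control mean, the median log2 value of the 9 was 1.28 in replicate 1 (0.26 to 2.51), 0.43 in replicate 2 (0.10 to 1.20) and 3.89 in replicate 3 (3.04 to 5.84). MYCN did not have this order, since replicate 2 had its highest level and replicate 3 its lowest among induced libraries. The coefficient of variation of the effectors had a median of 18.6% among controls (5.19% to 28.8%) and of 121% among induced libraries (94.3% to 153%), against 9.15% and 14.5% for all genes tested.

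Leaving out replicate 3 lowered each fold change and narrowed its error. The median log2 fold change of the 9 went from 2.61 to 0.78, and 4 of 9 were then higher at an adjusted p under 0.05 (CHAC1, NUPR1, STC2 and PCK2), against 3.64% of all genes. These are the same 4 that DESeq2 called with all libraries. TRIB3 and DDIT4 came close, with log2 fold changes of 0.78 (adjusted p = 0.0625) and 0.63 (adjusted p = 0.0618), and SESN2 had 0.72 (adjusted p = 0.149, all from edgeR). Without replicate 2 instead, 3 of 9 passed (CHAC1, STC2 and PCK2), against 0.598% of all genes higher in that fit. Without replicate 1, 0 of 9 passed, against 0.251% of all genes. Without control replicate 1, 2 or 3, 0 of 9 passed in each fit, against 0.168%, 0.0722% and 0.110%, so calls were fewer over all genes as well. Over 11 alternatives, STC2 passed in 7, CHAC1 in 5, and NUPR1 and PCK2 in 4 each. TRIB3, DDIT4, SESN2 and VLDLR passed in 0 of the 11, and GDF15 in 0 of the 10 that gave it an adjusted p.

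**Figure D2:**
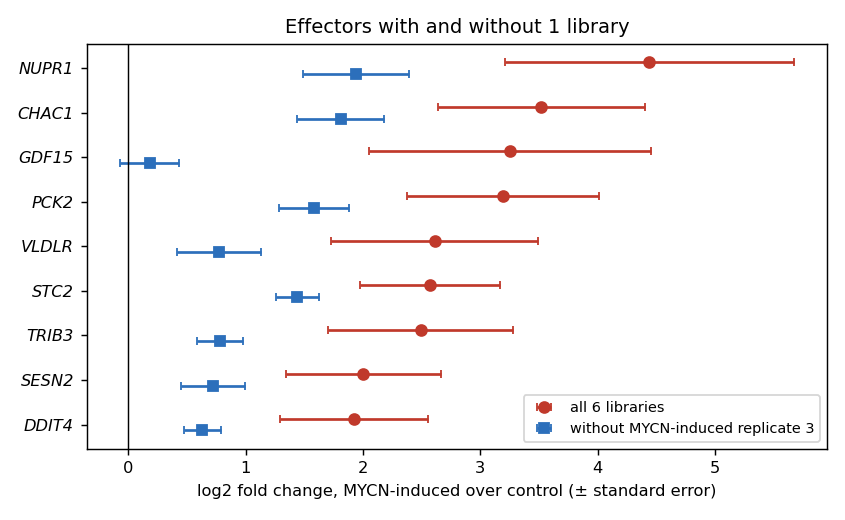
Log2 fold change of the 9 tested effectors, MYCN-induced over control, with its standard error, from all 6 libraries (red) and without MYCN-induced replicate 3 (blue). All values are above 0, those in blue run from 0.18 in GDF15 to 1.94 in NUPR1, and their errors are smaller.

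Per length, the effectors made up a small part of the RNA. Their summed TPM was 18.9, 22 and 22.4 in controls and 48.9, 34.8 and 216 in induced replicates 1, 2 and 3. DDIT4 had the highest TPM in each library and held 59.7% to 61.6% of the sum in controls and 42.4% to 55.7% in induced cells. The order below it differed between libraries. CHAC1 came after DDIT4 in induced replicates 1 and 3, with 8.95 and 40.5 TPM, whereas TRIB3 did in the controls, with 2.69 to 2.82 TPM against 1.59 to 1.88 for CHAC1. STC2 at 1.53 to 1.86 TPM and CHAC1 were not separated in controls. FGF21 was last in 5 libraries and had 4.07 TPM in replicate 3, above NUPR1 (2.21 TPM) and VLDLR (0.706 TPM).

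Close relatives of the effectors mostly stayed near a log2 fold change of 0. CHAC2, which also degrades glutathione, had 0.09 (SE 0.18), TRIB1 had 0.03 (0.09) and TRIB2 had 0.04 (0.07), the last on 8057 to 12574 counts per library. NUPR2 had 0.33 (0.22) and the lipoprotein receptor LRP8 had 0.22 (0.07), none past the test (adjusted p from 0.127 to 0.890, edgeR). FGF19 stood at 0.01 (0.49) on at most 17 counts. DDIT4L, PCK1 and FGF23 had between 0 and 2 counts in each library and were not tested.

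The sestrins and stanniocalcins were the exceptions. SESN3 was at 98.6, 94.6 and 92.9 CPM in controls and at 52.4, 60.1 and 37.4 CPM in induced cells, without overlap, and fell by 0.93 on the log2 scale (SE 0.16, edgeR adjusted p = 0.0237). SESN1, at 6.07, 5.66 and 5.66 CPM against 4.41, 3.90 and 3.61 CPM, fell by 0.55 (SE 0.12, edgeR adjusted p = 0.0475). SESN2 thus had a higher mean in induced cells while its relatives were lower, a difference between genes that was not tested.

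STC1 was at 0.258, 0.237 and 0.197 CPM against 0.478, 0.526 and 0.967 CPM and rose by 1.51 (SE 0.32, edgeR adjusted p = 0.0475). It was called where STC2 was not, on a smaller fold change with a smaller error. These calls depended on the libraries used: each of SESN1, SESN3 and STC1 lost its call when any control or MYCN-induced replicate 1 was left out, and SESN1 and STC1 also without MYCN-induced replicate 2 (adjusted p up to 0.201, 0.109 and 0.189).

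**Figure D3:**
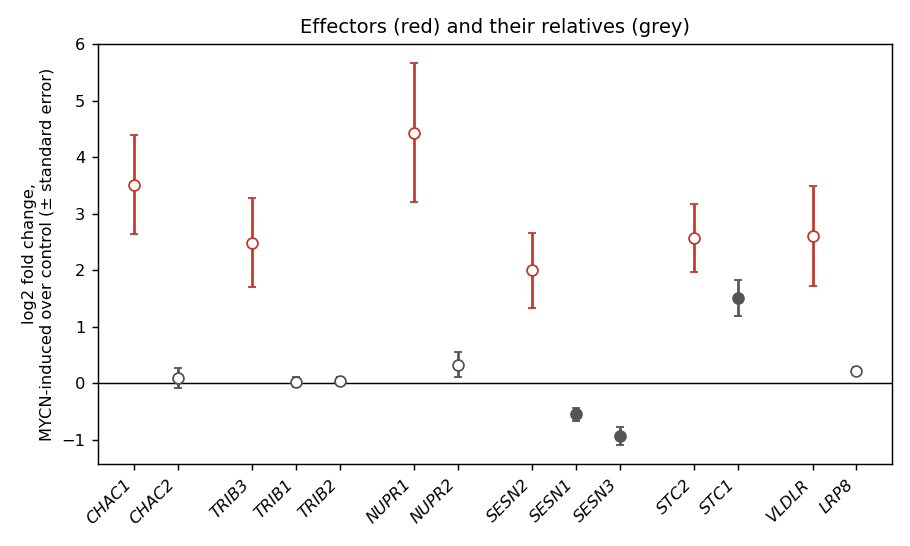
Log2 fold change, MYCN-induced over control, with standard error, of 6 effectors (red) beside their relatives (grey). Filled points passed an adjusted p of 0.05. The red points lie between 2.00 and 4.44, and among the relatives only SESN1, SESN3 and STC1 are filled.

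Other ATF4 targets are the genes of amino acid supply, which make, import or charge amino acids. Of 26 tested, 6 rose and 0 fell, against 1.02% and 2.38% of all genes, with a median log2 fold change of 1.05. At an unadjusted p under 0.05 in edgeR, 23 were higher and 0 lower, against 8.13% and 10.6% of all genes. In 23 the induced libraries were higher without overlap, against 11.5%. Replicate 3 was the highest of the 6 libraries in 24, against 25.0%, so these traits were not particular to the effectors. Without replicate 3, 16 rose (median 0.54), against 3.64% of all genes. No gene of this list was called when any control or MYCN-induced replicate 1 was left out. MTHFD2, of mitochondrial folate metabolism, was at 58.6, 60.2 and 62.5 CPM against 169, 118 and 302 CPM and rose by 1.70 (SE 0.30, edgeR adjusted p = 0.0278). The paper's methods also count MTHFD2 among the MYCN targets measured to check induction. PHGDH, the enzyme that opens serine synthesis, was at 25.2, 25.3 and 24.6 CPM against 86.8, 45 and 188 CPM and rose by 2.09 (adjusted p = 0.0482 from edgeR). SLC7A1, a transporter of basic amino acids, was at 83.2, 88.3 and 86.1 CPM against 198, 147 and 355 CPM (log2 1.44, adjusted p = 0.0388 from edgeR). In these genes the order of the induced libraries was that of the effectors.

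ALDH18A1, of proline synthesis, differed from that order, with 71.0, 71.4 and 69.9 CPM in controls and 98.2, 102 and 86.0 CPM in induced cells. It rose by 0.43 (SE 0.08, edgeR adjusted p = 0.0303), and replicate 3 was the lowest induced library. CBS, of cysteine synthesis, rose by 0.60 (adjusted p = 0.036 from edgeR), from 18.6 to 22.3 CPM in controls to 28.6, 28.9 and 35.4 CPM. The remaining gene, SLC7A11, the cystine importer that feeds glutathione synthesis, was named after its values were seen. It was at 16.8, 16.1 and 14.9 CPM against 86.9, 46.3 and 414 CPM, with a log2 fold change of 3.52 (SE 0.75, edgeR adjusted p = 0.0494) that equals that of CHAC1 in size.

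Upstream of the effectors, 1 of 15 regulators of the stress response rose (ATF4) and 1 fell (EIF2AK3), against 1.02% and 2.38% of all genes, with a median of 0.46. At an unadjusted p under 0.05 in edgeR, 7 regulators were higher and 1 lower, against 8.13% and 10.6% of all genes. In 7 the induced libraries were higher without overlap, against 11.5%, and in 1 they were lower. Replicate 3 was the highest library in 12 of the 15, against 25.0%. Without replicate 3, 7 rose and 1 fell, against 3.64% and 4.37% of all genes. EIF2AK3, which encodes the eIF2α kinase PERK, was at 19.9, 18.9 and 17.8 CPM against 12.4, 13.8 and 11.8 CPM and fell by 0.57 (SE 0.10, edgeR adjusted p = 0.0241), a call also lost when any control or MYCN-induced replicate 1 was left out. Of 20 genes of the endoplasmic reticulum's own unfolded protein response, 0 rose and 0 fell, against 1.02% and 2.38% of all genes. Their median was 0.14. At an unadjusted p under 0.05 in edgeR, 4 were higher and 0 lower, against 8.13% and 10.6% of all genes. DESeq2 called 2 higher, against 3.11%, and 6 were higher without overlap, against 11.5%. Replicate 3 was the highest of the 6 libraries in 11 of the 20, against 25.0% of all genes. The smallest p-values there belonged to DNAJB9, a chaperone (log2 0.42, adjusted p = 0.115 from edgeR), and HERPUD1, of protein disposal (log2 1.15, adjusted p = 0.159 from edgeR).

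Some effectors are also known to answer to p53 or to low oxygen, so targets of both were read beside them. Of 20 p53 targets, 0 rose and 5 fell, against 1.02% and 2.38% of all genes, with a median of 0.04. At an unadjusted p under 0.05 in edgeR, 1 was higher, against 8.13% of all genes. DESeq2 called 0 higher, against 3.11%. SPATA18 fell by 1.55 (adjusted p = 0.00179), BTG2 by 1.0 (adjusted p = 0.0114), FAS by 1.01 (adjusted p = 0.027) and the cell cycle inhibitor CDKN1A by 0.91 (adjusted p = 0.0411, all from edgeR), and SESN1 is the fifth. SPATA18 kept its call whichever library was left out (adjusted p up to 0.0234), while the others lost theirs without control replicate 2, control replicate 3 or MYCN-induced replicate 1, and all but BTG2 also without control replicate 1 or MYCN-induced replicate 2. Of 19 hypoxia targets tested, 2 rose and 1 fell, against 1.02% and 2.38% of all genes, with a median of 0.15. They were STC1, MXI1 (log2 0.62, adjusted p = 0.0154 from edgeR) and the kinase PDK1, which fell by 0.59 (adjusted p = 0.00774 from edgeR). MXI1 lost its call without any of the controls, and PDK1 without control replicate 2 or 3.

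**Figure D4:**
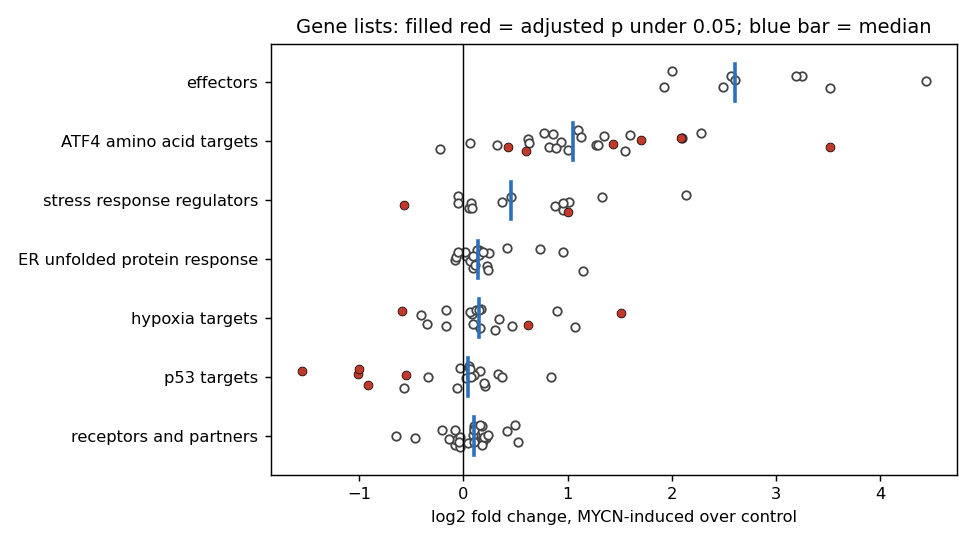
Log2 fold change, MYCN-induced over control, of the tested genes of each list (1 point per gene), with genes past an adjusted p of 0.05 in red and the list's median as a blue bar. The 9 effectors have the highest median, 2.61, and no red point, the amino acid targets have 6, and the receptors and partners lie around 0.

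Receptors and partners of the effectors did not pass the test with all 6 libraries in either direction. Of 28 tested, 0 rose and 0 fell in edgeR (4 higher and 3 lower at an unadjusted p under 0.05, against 8.13% and 10.6% of all genes, and 2 higher and 2 lower by DESeq2, against 3.11% and 4.12%), with a median of 0.10. PAPPA, the protease that STC2 inhibits, was at 17.5, 15.5 and 16.0 CPM in controls and 12.4, 10.2 and 13.1 CPM in induced cells (log2 -0.46, adjusted p = 0.0819 from edgeR). GGCT, of glutathione metabolism, was at 28.7, 30.5 and 30.6 CPM against 37.4, 47.1 and 35.3 CPM (log2 0.42, adjusted p = 0.0982 from edgeR). For both the groups did not overlap. Receptors of the secreted effectors were looked at after their values were seen. GFRAL had 0 counts in every library, which allows up to 3 counts in each, while its partner RET was at 170 to 188 CPM in controls and at 104, 87.7 and 152 CPM in induced cells, without overlap. RET had a log2 fold change of -0.65 (SE 0.18, edgeR adjusted p = 0.104), and it passed with DESeq2 (adjusted p = 0.0303), with the replicate block (edgeR adjusted p = 0.0465) and without replicate 3 (log2 -0.90, edgeR adjusted p = 0.00388). For FGF21, the co-receptor KLB was at 3.41 to 3.97 CPM in controls and 3.28 to 4.81 CPM in induced cells, and FGFR1 was at 90.6 to 100 CPM in all libraries.

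The genes whose profile over the 6 libraries was most like the mean profile of the 9 effectors were found by Pearson's r of log2(CPM + 0.5) among 18526 genes with a mean of at least 1 CPM. They were ENSG00000287347 (r = 0.9988), LINC00963 (0.9981), HERPUD1 (0.9965), APOL6 (0.9963) and IGFN1 (0.9963). In all, 45 genes had r above 0.99. These 6 points share the contrast and the high replicate 3, so r describes these libraries only. HERPUD1 was at 33.3, 32.8 and 32.3 CPM in controls and 50.8, 40.4 and 128 CPM in induced cells, and IGFN1 at 1.88, 1.70 and 2.02 CPM against 4.65, 2.79 and 46.0 CPM. None of the 5 passed the test (adjusted p from 0.129 to 0.240, edgeR). Among the effectors, r with the mean of the others was highest in TRIB3 and NUPR1 (0.998 each) and lowest in GDF15 (0.948), the gene that was high in replicate 3 alone.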

How the data were processed

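The authors deposited a table of estimated counts for each library: read pairs over the exons of each gene, not normalized, with pairs on several genes shared in fractions. The submitters' processing notes name STAR 2.7.1a, featureCounts 1.5.1 and GRCh38. The header names featureCounts 1.6.4 without a strand option, whereas the methods give one, so antisense overlaps are uncertain. Of 60651 identifiers, 99.65% were given a symbol from GENCODE release 44 or the gene table, and all 10 members have the same coordinates in that release.

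Counts were rounded and tested in R 4.3.3 with edgeR 4.0.16 (TMM, quasi-likelihood, Benjamini-Hochberg over 29086 genes reaching 10 counts in 3 or more libraries, threshold 0.05). The study's methods used DESeq2, which was run here (1.42.0) as an alternative, beside other normalizations, no filter, the replicate block and leaving out each library. TPM used exon lengths. The study describes its replicates as independent experiments, and p-values measure the spread between these samples. Tested on simulated counts of 28617 genes for the comparison of MYCN-induced with control, edgeR called 118 of 199 genes changed 2-fold and 8 unchanged genes. The simulated libraries of a group shared a common mean for each gene, and none was made to stand apart as MYCN-induced replicate 3 did. The share recovered therefore does not carry over to the effectors. The biological coefficient of variation was 0.153. No GEO label names a batch.

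The members and lists were chosen with earlier results of these data known, and the lists were written from general knowledge. Named were all members, their relatives (1 is not reported here), ATF4, DDIT3, MYCN, overlapping genes, up to 5 genes per other list past the threshold (or up to 2 by smallest p where fewer passed) and the 5 most similar profiles. Motifs were searched in RefSeq promoter windows (GRCh38.p14) and in GRCh38 with Python 3.11.15.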

Additional observations from a re-analysis of the deposited data

How the results depend on the processing

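No effector changed direction under any alternative, and MYCN stayed between 2.63 and 2.75 on the log2 scale. Effectors called higher numbered 1 with library size only (STC2), 2 with upper-quartile normalization (CHAC1 and STC2), 4 with DESeq2, 4 with no count filter and 2 with the replicate block (NUPR1 and STC2), against 0. In the same order, 239, 267, 904, 470 and 265 of all genes were higher, against 298. The fit with no filter tested 45073 genes, against 29086 in the main fit. Same-numbered libraries had deviations correlated at 0.216, -0.019 and 0.074, and differently numbered ones at -0.193 to 0.082. These are deviations from means of few libraries, so they cannot decide whether the numbers pair the libraries. Over the fits without 1 library, 0 to 4 effectors were called and their median log2 fold change ran from 0.78 (without MYCN-induced replicate 3) to 3.11.

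For regulators called higher, the alternatives in the same order gave 2, 3, 7, 4 and 2, against 1. Amino acid targets called higher were 15 with DESeq2 and 16 with no filter, against 6. DESeq2 called 2 unfolded protein response genes higher, 2 partners higher and 2 lower, against 0 of each, and 1 partner was lower with library size only and with the block. With the block 1 p53 target and 1 hypoxia target were higher, and 0 relatives, against 0, 2 and 1. Relatives called lower were 1, against 2, with library size only, upper-quartile normalization, no filter and the block. Over all genes, 298 were higher and 692 lower, against 904 and 1199 with DESeq2 and 470 higher of 45073 genes with no filter.

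Leaving out 1 library gave, over all genes, 21 to 1058 higher and 92 to 1271 lower. It gave 0 to 7 regulators higher and 0 to 1 lower, 0 to 16 amino acid targets higher, 0 to 1 unfolded protein response genes higher, 0 to 1 p53 targets higher and 1 to 5 lower, 0 to 3 hypoxia targets higher and 0 to 1 lower, 0 to 1 relatives higher and 0 to 2 lower, and 0 to 1 partners higher and 0 to 3 lower. The lowest counts over all genes came without control replicate 2 and the highest without MYCN-induced replicate 3. The cause was not tested. The control values of FGF21 and NUPR1 rest on few counts, which widens their counting intervals.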
